A study of Mus musculus with 18 samples.

Results

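The P-glycoprotein genes Abcb1a, Abcb1b and Abcb4 were followed over all 18 arrays of a study of side population (SP) cells in 3 mouse lung carcinoma cell lines. They are 3 of the 18193 genes that the array annotation names. Every probe set annotated to 1 of them was taken, which gave 5 of the 45037 probe sets that are not array controls. Abcb1a (gene ID 18671) had 1419758_at and 1419759_at, Abcb1b (18669) had 1418872_at and 1446701_at, and Abcb4 (18670) had 1449818_at alone. No probe set that names several genes included 1 of them. SP cells pump the DNA dye Hoechst out and so stain dimly in a cell sorter, and nonSP cells are the rest of the culture. The study asked which genes differ in expression between both fractions. The lines A2C12, betaD5 and cRAF_cMYC had all been grown out of lung tumours of mice that carried both a c-myc and a c-raf transgene and were 8 months old. The cells were kept in serum-containing medium, and the labels give no drug treatment for any group. The 6 groups, SP and nonSP of each line, held 3 arrays each. The promoter that drives the transgenes was not given in the labels, and neither was whether a line is 1 clone.

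ATP-binding cassette transporters use ATP to move substrates across membranes. In rodents Abcb1a and Abcb1b share the drug efflux work of the single human P-glycoprotein gene ABCB1 and carry many lipophilic drugs and dyes out of the cell. Abcb4 is a close relative that moves phosphatidylcholine to the outer face of the bile canalicular membrane of liver cells and adds little to drug resistance. Hoechst exclusion in SP cells is usually credited to Abcg2, another efflux pump, and P-glycoprotein can contribute to it. In the normal body Abcb1a is known from the endothelium of brain vessels and from gut, and Abcb1b from adrenal gland, kidney and pregnant uterus.

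The genes stand next to each other on chromosome 5 in the order Abcb1a, Abcb1b and Abcb4, all read from the + strand, with Rundc3b before them and Crot after them. The promoter stretches are printed as a description of these neighbours. Whether their letters bear on the results below was not tested. They come from RefSeq (build GRCm38.p6), run 5′ to 3′ and end at the base before the gene's annotated first base. The RefSeq promoter window holds 250 bases before a start site, which is the gene's first base for Abcb1a and Abcb1b. For Abcb4 this site (8893721) lies 107 bases after the gene's first base (8893614), so the printed stretch is the first 143 of the 250 bases. Capitals mark CCAAT boxes (CCAAT, or ATTGG on the other strand) and GC boxes (GGGCGG, or CCGCCC).
Abcb1a, chr5:8566841-8567090: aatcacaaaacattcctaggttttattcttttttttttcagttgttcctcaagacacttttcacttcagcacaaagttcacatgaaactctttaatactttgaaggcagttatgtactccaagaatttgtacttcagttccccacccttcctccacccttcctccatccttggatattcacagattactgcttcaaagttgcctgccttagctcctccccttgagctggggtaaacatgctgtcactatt
Abcb1b, chr5:8797897-8798146: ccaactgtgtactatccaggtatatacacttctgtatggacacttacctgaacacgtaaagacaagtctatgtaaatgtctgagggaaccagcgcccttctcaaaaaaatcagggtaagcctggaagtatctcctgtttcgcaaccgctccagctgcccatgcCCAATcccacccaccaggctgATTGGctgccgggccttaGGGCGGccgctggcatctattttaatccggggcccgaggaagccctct
Abcb4, chr5:8893471-8893613: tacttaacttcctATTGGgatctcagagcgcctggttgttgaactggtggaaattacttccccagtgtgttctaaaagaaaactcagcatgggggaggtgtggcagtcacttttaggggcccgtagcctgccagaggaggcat

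The Abcb1b window held CCAAT at 87 to 83 bases upstream of the start, ATTGG at 66 to 62 and GGGCGG at 48 to 43. In the Abcb4 window ATTGG lay at 237 to 233 bases upstream of the window's own start site, and GGGCGG at 46 to 41, outside the printed stretch. The Abcb1a window held none of the 5 motifs searched on both strands, which were the CCAAT box, the GC box, the TATA box (TATAAA), the Myc-bound E-box (CACGTG) and the AP-1 site (TGANTCA). No match of 1 motif overlapped a match of another in these windows. Among 32841 mouse promoter windows of the same length 33.9% held a CCAAT box and 32.7% a GC box, so both motifs are common. A TATA box was found in 12.4%, the E-box in 6.0% and the AP-1 site in 6.8%. G and C made up 40.4% of the Abcb1a window, 52.8% of the Abcb1b window and 61.6% of the Abcb4 window, against a median of 52.4%. A match of letters is a description and not a binding site.

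The values are the authors' deposited log2 signals. Array medians lay between 5.80 and 6.72, and those of A2C12 and of the pair cRAF_cMYC 1 were the lower ones (5.80 to 6.06). Both arrays labelled betaD5 1 correlated at up to 0.988 and 0.989 with arrays of cRAF_cMYC, and at no more than 0.967 with those of their own line outside the pair. The SP and nonSP arrays labelled cRAF_cMYC 3 reached 0.988 and 0.989 with betaD5 arrays and 0.969 each within their own line outside the pair. Line results are therefore also given without these pairs where that matters. Among lists of cell type markers, the mesenchymal ones were over the array median in all groups (7 of 7), with Vim at the 99.7 and 99.8 percentiles as group means. Epithelial markers were over it for 4 or 5 of 8. Markers of lung alveolar type II cells were over it for 2 or 3 of the 5 analysed, and the airway club cell markers for 0 of 3. Cdh1, the epithelial cadherin, averaged the 54.2 and 55.6 percentiles in SP and nonSP arrays of A2C12 and the 8.8 to 22.7 percentiles in the groups of the other lines. Epcam, of the same list, went the other way. It averaged the 75.4 and 75.7 percentiles in SP and nonSP arrays of A2C12 and the 78.5 to 80.4 percentiles in the other lines' groups. Endothelial cells carry Abcb1a in the body. Their markers were over the median for 1 to 3 of 6, with Pecam1 between the 14.3 and 28.9 percentiles and Cdh5 between the 22.1 and 34.7 percentiles as group means. Hepatocytes carry Abcb4. Their markers were over the median for 1 of 4 in every group, and Alb averaged between the 36.2 and 39.6 percentiles.

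The first comparison was the level of each gene in each line. Abcb1b on 1418872_at is described first. It had values of 9.28, 9.48 and 9.14 in A2C12 SP arrays (replicates 1, 2 and 3), against 9.66, 9.15 and 8.96 in A2C12 nonSP arrays. In betaD5 it had 10.46, 11.19 and 10.76 in SP arrays, against 10.60, 10.27 and 10.52 in nonSP arrays. In cRAF_cMYC it had 9.94, 9.91 and 10.93 in SP arrays, against 9.52, 9.98 and 10.47 in nonSP arrays. All 6 A2C12 arrays lay below all 6 betaD5 arrays. The array medians separated in the same way (up to 6.06 in A2C12, from 6.48 in betaD5), and the share of all probe sets that did so was not counted. The cRAF_cMYC arrays overlapped both, betaD5 only through pair 3. Without the pairs betaD5 1 and cRAF_cMYC 3, cRAF_cMYC (9.52 to 9.98) lay below betaD5 (10.27 to 11.19). The array medians of the pairs kept separated in the same way (up to 6.53 in cRAF_cMYC, from 6.59 in betaD5). The share of all probe sets that did so was not counted here either. Within each array the probe set stood between the 82.6 and 92.0 percentiles, so it was a bright probe set in every sample. In order from low to high the nonSP means were 9.26 ± 0.36 in A2C12, 9.99 ± 0.47 in cRAF_cMYC and 10.47 ± 0.17 in betaD5 (SD, n = 3 each). Neighbours in this order overlapped with all pairs kept.

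The second Abcb1b probe set, 1446701_at, was dim, between the 16.5 and 33.9 percentiles of its arrays. It had 4.25, 4.70 and 3.86 in A2C12 SP arrays, against 4.20, 4.51 and 4.12 in A2C12 nonSP arrays. The betaD5 values were 5.13, 5.01 and 5.46 in SP arrays, against 5.25, 5.25 and 5.88 in nonSP arrays. The cRAF_cMYC values were 4.53, 4.78 and 4.96 in SP arrays, against 4.60, 4.86 and 5.09 in nonSP arrays. The lines stood in the same order as on 1418872_at, and A2C12 again did not overlap betaD5, as the array medians of these lines did not either. The deposited table holds no detection call, so whether so dim a signal was above background was not tested.

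Abcb4, the phosphatidylcholine transporter, lay close to the middle of each array, between the 53.8 and 63.5 percentiles. It had 6.42, 6.29 and 6.35 in A2C12 SP arrays, against 6.47, 6.45 and 6.35 in A2C12 nonSP arrays. In betaD5 the values were 7.06, 7.58 and 7.50 in SP arrays, against 7.37, 7.33 and 7.39 in nonSP arrays. In cRAF_cMYC they were 6.48, 7.23 and 7.04 in SP arrays, against 6.36, 7.11 and 7.06 in nonSP arrays. The 6 A2C12 arrays lay between 6.29 and 6.47, below all betaD5 arrays, and the array medians of A2C12 also lay below those of betaD5. The pair cRAF_cMYC 1 stood with A2C12, and the other cRAF_cMYC pairs stood nearer to betaD5.

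Abcb1a had another pattern. On 1419758_at it had 6.38, 7.58 and 7.16 in A2C12 SP arrays, against 6.86, 6.99 and 7.11 in A2C12 nonSP arrays. The betaD5 values were 7.03, 7.63 and 6.43 in SP arrays, against 7.15, 5.86 and 6.57 in nonSP arrays, and the cRAF_cMYC values were 6.09, 5.77 and 7.34 in SP arrays, against 5.17, 6.39 and 6.74 in nonSP arrays. All 3 lines overlapped. The within-group SD of this probe set, 0.65, was larger than that of 94.2% of probe sets, whose median was 0.34.

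On the second Abcb1a probe set, 1419759_at, the values were 7.28, 8.03 and 7.95 in A2C12 SP arrays, against 7.44, 7.40 and 7.83 in A2C12 nonSP arrays. They were 7.82, 7.85 and 7.54 in betaD5 SP arrays, against 8.04, 6.93 and 7.73 in betaD5 nonSP arrays. They were 6.65, 6.68 and 7.56 in cRAF_cMYC SP arrays, against 6.38, 7.29 and 7.17 in cRAF_cMYC nonSP arrays. The nonSP means of A2C12 (7.56 ± 0.24) and betaD5 (7.57 ± 0.58) were nearly equal, and that of cRAF_cMYC was 6.95 ± 0.49 (SD, n = 3 each). The betaD5 nonSP arrays overlapped those of both other lines, while the A2C12 nonSP arrays (7.40 to 7.83) lay above those of cRAF_cMYC (6.38 to 7.29). The SP arrays of A2C12 (7.28 to 8.03) and cRAF_cMYC (6.65 to 7.56) overlapped. The share of all probe sets that part the nonSP arrays of these 2 lines was not counted.

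**Figure D1:**
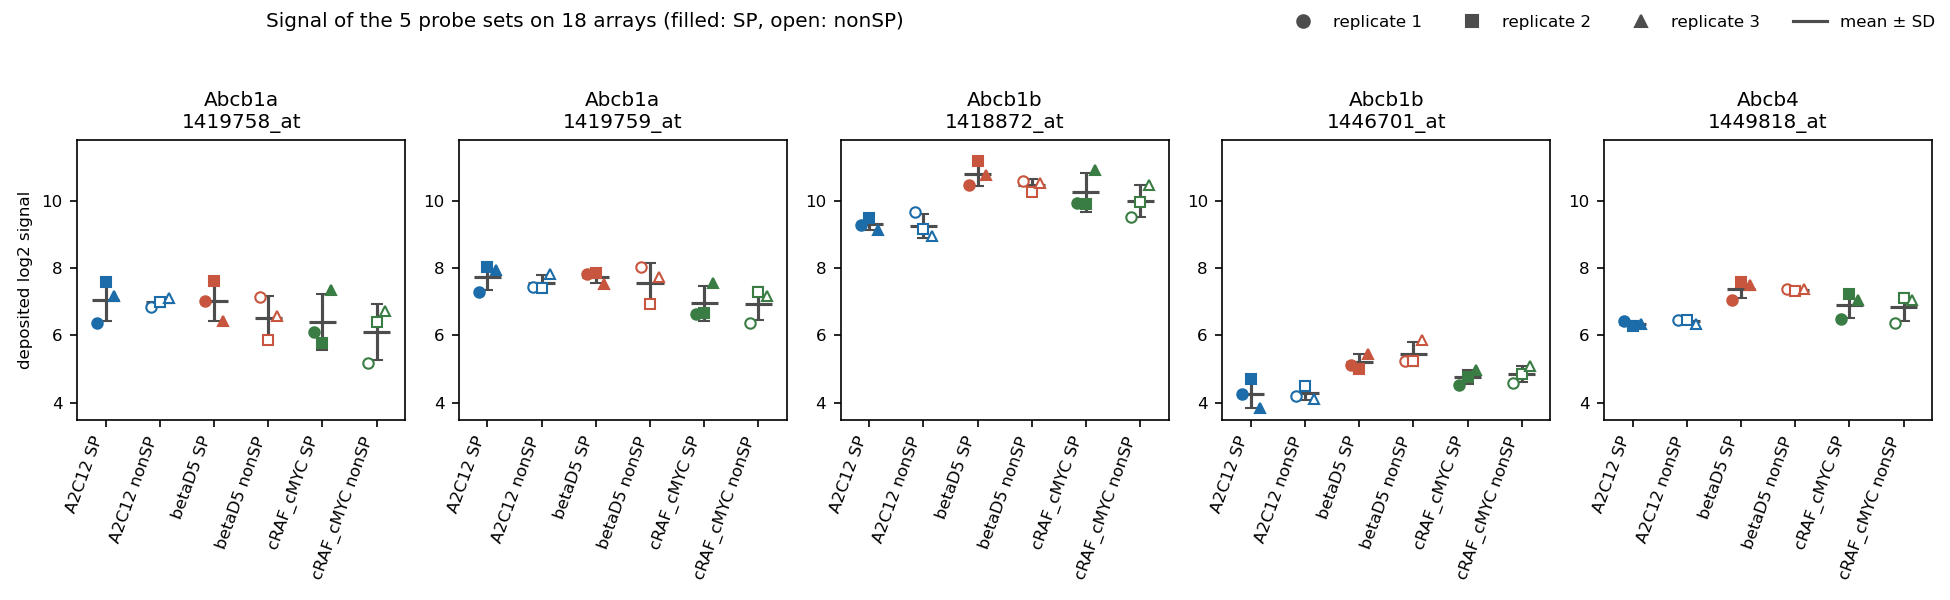
Deposited log2 signal (y axis) of each of the 5 probe sets in the 6 groups (x axis), SP left of nonSP in each line. Points are single arrays, filled for SP and open for nonSP, with shapes for replicates, and bars are the mean ± SD of 3 arrays. The A2C12 arrays of Abcb1b and Abcb4 lie below all betaD5 arrays, and those of Abcb1a do not. The array medians of A2C12 also lie below those of betaD5.

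In limma with Benjamini-Hochberg adjustment over all probe sets (called at an adjusted p under 0.05), 3 of the 5 probe sets were lower in A2C12 nonSP than in betaD5 nonSP arrays. Among all probe sets 57.7% were called lower, 1.74% higher and 59.4% in either direction, and the median difference was -0.73 on the log2 scale, so the share of members called is close to the background. Abcb1b fell by 1.21 ± 0.30 (SE, adjusted p = 0.003956) on 1418872_at and by 1.18 ± 0.25 (adjusted p = 0.001476) on 1446701_at. Abcb4 fell by 0.94 ± 0.25 (adjusted p = 0.005769). Abcb1a differed by 0.46 ± 0.47 on 1419758_at and by -0.01 ± 0.34 on 1419759_at (adjusted p = 0.3873 and 0.9778), and so lay above the shift of the arrays.

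These calls rested on the scale of the arrays. With each array centred on its own median, the differences of A2C12 nonSP from betaD5 nonSP arrays were -0.52 (Abcb1b 1418872_at, 95% interval -1.10 to 0.07), -0.49 (1446701_at, -0.90 to -0.07) and -0.24 (Abcb4, -0.60 to 0.12). None of the 3 was then called (limma adjusted p = 0.2634, 0.125 and 0.4107), and 11.9% of all probe sets were. Abcb1a then differed by 1.16 (1419758_at, 0.16 to 2.15) and by 0.69 (1419759_at, -0.01 to 1.38), also without a call (adjusted p = 0.1284 and 0.2077). The sign of 1419759_at thus turned with the scale, and every other sign was kept.

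Between A2C12 nonSP and cRAF_cMYC nonSP arrays no member was called, against 17.5% of all probe sets, with a median difference of -0.40. Abcb1a differed by 0.89 ± 0.47 and 0.61 ± 0.34 on 1419758_at and 1419759_at (limma adjusted p = 0.1761 and 0.1925). Abcb1b differed by -0.73 ± 0.30 and -0.57 ± 0.25 on 1418872_at and 1446701_at (adjusted p = 0.09306 and 0.1074), and Abcb4 by -0.42 ± 0.25 (adjusted p = 0.2294). Only on 1418872_at did leaving out 1 array make a call: without cRAF_cMYC nonSP replicate 1 the difference was -0.97 (adjusted p = 0.0317). On centred arrays Abcb1a differed by 1.27 (95% interval 0.28 to 2.27) and 0.99 (0.29 to 1.69), with limma adjusted p of 0.1088 and 0.07364, and 9.09% of all probe sets were called. Abcb1b then differed by -0.35 on 1418872_at and by -0.20 on 1446701_at, and Abcb4 by -0.039, each closer to 0 by more than 1.5 times (limma adjusted p = 0.5006, 0.6232 and 0.9274).

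Between betaD5 nonSP and cRAF_cMYC nonSP arrays limma called none of the members and 0% of all probe sets, although 5704 had an unadjusted p under 0.05. The members' differences ran from 0.43 (Abcb1a 1419758_at) to 0.62 (Abcb1a 1419759_at), beside a median of 0.31 over all probe sets. Without the pairs betaD5 1 and cRAF_cMYC 3 the same comparison called 5125 of 45037 probe sets, none of them a member. The median over all probe sets was then 0.46.

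**Figure D2:**
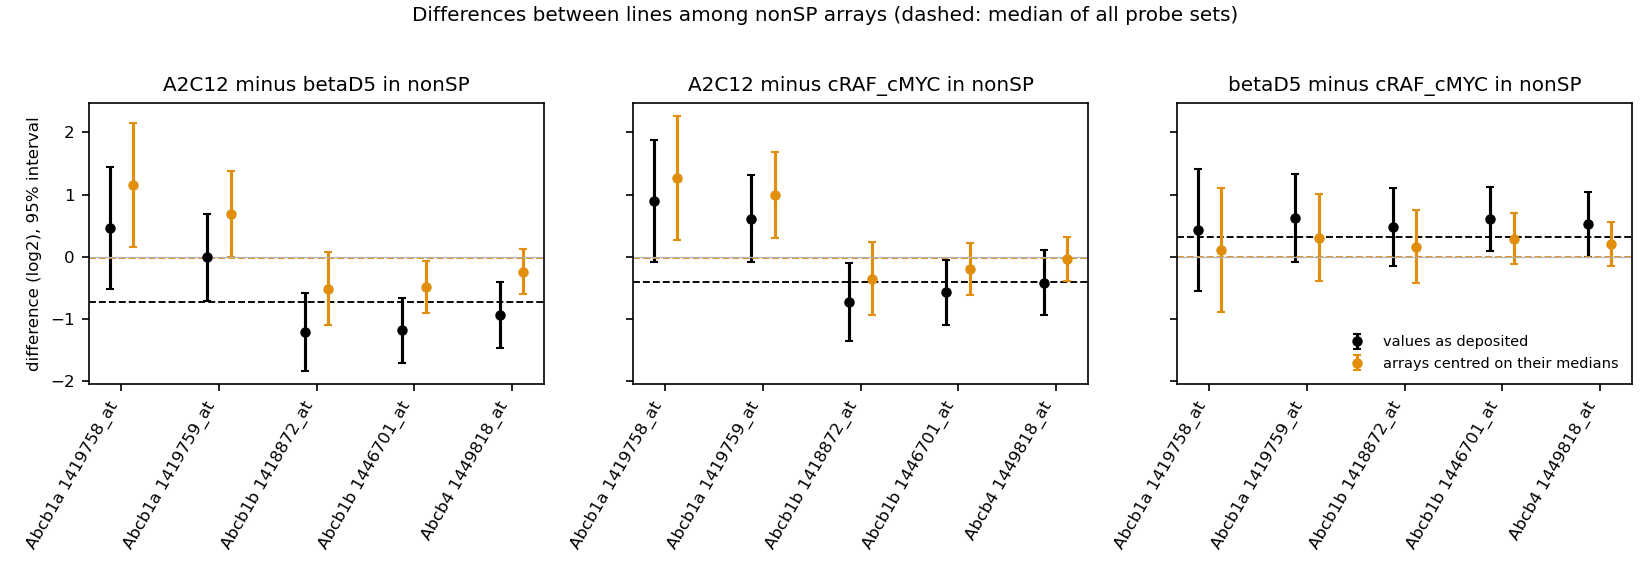
Difference between lines among nonSP arrays (y axis, log2, with the 95% interval of the limma fit) for the 5 probe sets (x axis), from the values as deposited in black and with each array centred on its median in orange. Dashed lines give the median of all probe sets in each version. In the left panel Abcb1b and Abcb4 lie below 0 as deposited, beside a median of -0.73, and Abcb1a lies above that median in both versions.

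A difference between 2 probe sets within an array does not depend on the level of the array. Abcb1a minus Abcb1b (1419758_at minus 1418872_at) was -2.26 ± 0.56 in SP and -2.27 ± 0.48 in nonSP arrays of A2C12. It was -3.77 ± 0.49 in SP and -3.94 ± 0.48 in nonSP arrays of betaD5, and -3.86 ± 0.28 in SP and -3.89 ± 0.40 in nonSP arrays of cRAF_cMYC (SD, n = 3 each). The A2C12 values ran from -2.90 to -1.85 and the highest value of any other array was -3.43. On these 2 probe sets the balance was thus shifted towards Abcb1a on each of the 6 A2C12 arrays. With 1419759_at for Abcb1a, A2C12 ran from -2.22 to -1.13 and the other lines reached at most -2.56. Against the dim Abcb1b probe set 1446701_at, 1419758_at did not part the lines. Their values were 4.25 and 6.38 on the SP array of A2C12 1. On the SP array of betaD5 2 they were 5.01 and 7.63, which is farther apart. The ratio to 1418872_at was chosen after its values had been seen, has no test, and shows an unequal change and not which gene changed. How many other pairs of probe sets part A2C12 in this way was not counted. The mesothelial markers moved with the same split: 2 of 5 were over the array median in A2C12, with a mean log2 signal over the list of 5.77 to 6.18 per array, against 5 of 5 and 9.57 to 11.70 in the other lines. Their part in the result was not tested.

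The second comparison was SP against nonSP, given for each same-numbered pair and tested without and with the pairing. Limma on the group means, which leaves the pairing out, called no member in A2C12, betaD5, cRAF_cMYC or the mean of the 3 lines. It called 0% of probe sets (with 8, 176, 97 and 278 of the 45037 at an unadjusted p under 0.05), and every adjusted p of a member was 1. This fit keeps what same-numbered arrays share in its spread, so its intervals are wide. The median 95% half-width in 1 line was 0.59, against 0.25 with the replicate number as a block. With the replicate number as a block the mean of the 3 lines called 3 probe sets (0.00666%), none of them a member, and each line called 0% (unadjusted 1388, 5082 and 3175 in A2C12, betaD5 and cRAF_cMYC). The smallest adjusted p of a member with the block was 0.4029. In these arrays the intervals, given below, limit what was seen, and a p that misses the threshold does not show that the fractions are alike. The arrays measure RNA in a sorted fraction, so more RNA per cell and more cells with the RNA cannot be told apart.

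Abcb1b on 1418872_at was higher in SP in 6 of 9 pairs. SP minus nonSP was -0.38, 0.33 and 0.18 in pairs 1, 2 and 3 of A2C12, -0.14, 0.92 and 0.24 in betaD5, and 0.42, -0.07 and 0.46 in cRAF_cMYC. Of all probe sets 22.9% were higher in SP in at least 6 of 9 pairs. The mean over the lines was 0.22 ± 0.17 (SE, 95% interval -0.15 to 0.58) without the block and had an interval of -0.02 to 0.46 with it (adjusted p = 0.5157). Pair betaD5 2 decided much of it, and without that pair the blocked mean was 0.12.

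On the dim Abcb1b probe set 1446701_at SP was the lower fraction in 7 of 9 pairs, with all 6 pairs of betaD5 and cRAF_cMYC among them. The differences were 0.05, 0.19 and -0.27 in A2C12, -0.12, -0.25 and -0.42 in betaD5, and -0.07, -0.08 and -0.13 in cRAF_cMYC. At most 2 pairs higher in SP were found for 15.3% of all probe sets. The mean over the lines was -0.12 ± 0.14 (interval -0.42 to 0.18), or -0.25 to 0.01 with the block. In betaD5 alone the blocked difference was -0.26 (interval -0.48 to -0.037, limma unadjusted p = 0.02598 and adjusted p = 0.4029). It was the one SP interval of a member that left out 0 among the fits as deposited, with the block, on centred arrays and after quantile normalization. Both probe sets of the gene thus pointed in opposite directions in 6 of 9 pairs.

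Abcb1a was higher in SP in 5 of 9 pairs on both of its probe sets, a count that 42.2% of all probe sets reached or passed. On 1419758_at the differences were -0.48, 0.58 and 0.05 in A2C12, -0.12, 1.77 and -0.14 in betaD5, and 0.93, -0.62 and 0.60 in cRAF_cMYC. On 1419759_at they were -0.16, 0.63 and 0.12 in A2C12, -0.22, 0.93 and -0.19 in betaD5, and 0.27, -0.61 and 0.40 in cRAF_cMYC. Every line held pairs of both signs, and betaD5 2 had the highest difference on both probe sets. The means over the lines were 0.29 ± 0.27 (interval -0.28 to 0.85) and 0.13 ± 0.19 (-0.28 to 0.54). The intervals with the block were -0.17 to 0.74 and -0.18 to 0.43, and with the block and without betaD5 2 the means were 0.07 and 0.00.

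Abcb4 stayed within 0.30 of no difference in every pair. The differences were -0.05, -0.17 and 0.00 in A2C12, -0.30, 0.25 and 0.11 in betaD5, and 0.12, 0.12 and -0.02 in cRAF_cMYC. SP was higher in 4 of 9 pairs, and the mean was 0.01 ± 0.14 (interval -0.30 to 0.31), or -0.14 to 0.16 with the block. The narrow blocked interval makes Abcb4 one of the better bounded members, beside 1446701_at.

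**Figure D3:**
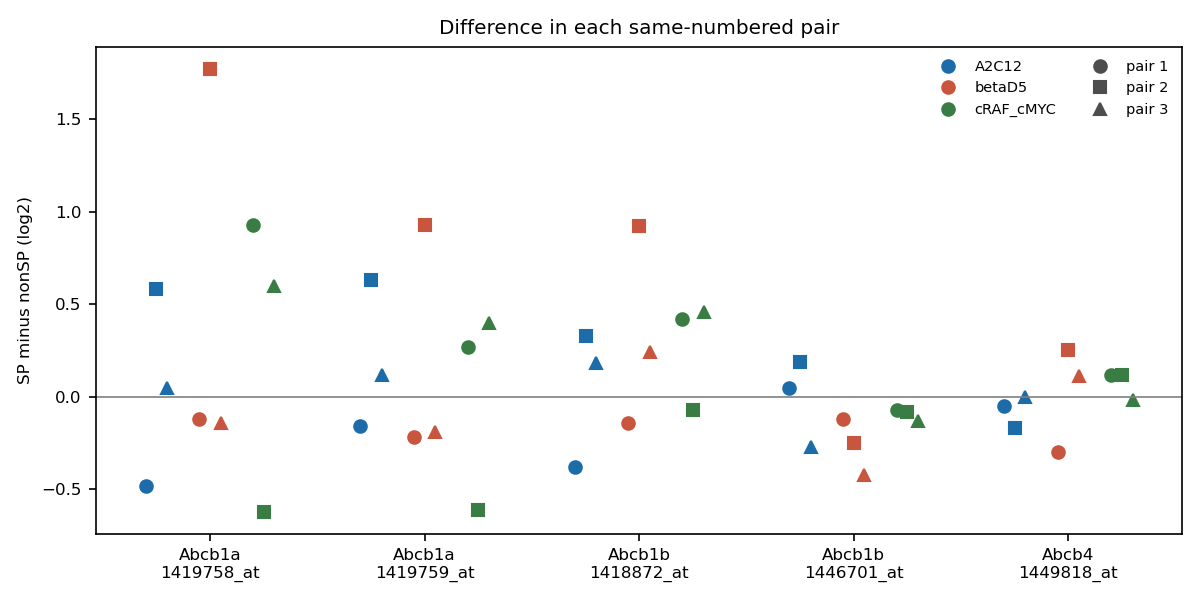
SP minus nonSP (y axis, log2) in each of the 9 same-numbered pairs for the 5 probe sets (x axis), with colours for lines and shapes for pair numbers. Points lie on both sides of 0 for every probe set, the pair betaD5 2 is highest for Abcb1a and for Abcb1b 1418872_at, and the Abcb4 points lie between -0.30 and 0.25.

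In another measure the fractions differed most in pairs betaD5 2 and betaD5 3. It was the log2 ratio of the 3′ to the 5′ probe sets of the controls Gapdh and Actb, a measure of RNA and cDNA length. In betaD5 2 the ratio was 0.91 on the SP array, against 0.14 on the nonSP array. In betaD5 3 the ratio was 0.96 on the SP array, against 0.10 on the nonSP array, and there Abcb1a differed by -0.14 and -0.19. In cRAF_cMYC 2 it was 0.16 on the SP array, against 0.65 on the nonSP array, and the Abcb1a differences were -0.62 and -0.61. With this ratio as a covariate beside the block, the mean over the lines was 0.12 for Abcb1a 1419758_at, 0.03 for 1419759_at and 0.12 for Abcb1b 1418872_at. The differences between the lines in the SP effect were also tested, and limma called no member (adjusted p = 1 each) and 0% of all probe sets, with 9 at an unadjusted p under 0.05.

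The third question was whether the probe sets move together. The 2 Abcb1a probe sets correlated at r = 0.89 over the 18 arrays and at 0.92 over the 9 pair differences, with the same sign in 9 of 9 pairs. The 2 Abcb1b probe sets correlated at 0.79 over the arrays, at 0.44 once array medians had been subtracted and at -0.30 over the pair differences, with the same sign in 3 of 9. For 4695 genes with 2 probe sets the median r was 0.69 over the arrays and 0.23 over the pair differences. The Abcb1a probe sets therefore stood above this median on both measures, while those of Abcb1b stood below it for the pair differences. The arrays share lines, fractions and array levels, so these r are descriptions.

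Abcb1a did not follow Abcb1b over the arrays but followed 1 of its probe sets, 1418872_at, over the pairs. Between 1419758_at and 1418872_at r was 0.15 over the 18 arrays, 0.72 over the deviations from the group means and 0.92 over the 9 pair differences (Spearman's rho 0.87), with the same sign in 8 of 9 pairs. Without the pairs betaD5 2 and cRAF_cMYC 1, which lay farthest from the median, r was 0.83 over 7 pairs. Between 1419759_at and 1418872_at these values were 0.13, 0.56 and 0.83 (rho 0.80), and 0.71 without betaD5 2 and cRAF_cMYC 2. Of the 45036 other probe sets, 0.11% followed the pair differences of 1418872_at as closely as 1419758_at did, and 0.96% as closely as 1419759_at. The second probe set of Abcb1b itself, 1446701_at, was matched or passed by 72.9% of them, and Abcb4 (r = 0.55) by 8.94%. The pair differences of 1446701_at had r of -0.07 and 0.11 with those of 1419758_at and 1419759_at, with the same sign in 4 of 9 pairs each. All pair differences come from the same 9 pairs. Probe sequences were not used here, so how far the probe sets of these paralogs bind each other's RNA was not tested.

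**Figure D4:**
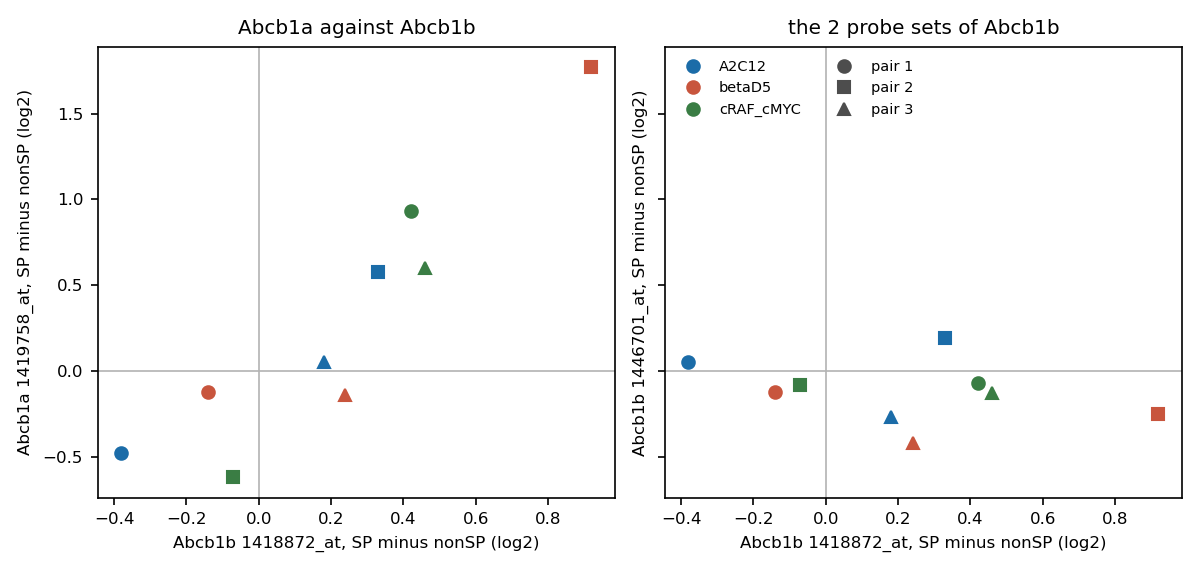
SP minus nonSP of Abcb1a 1419758_at (left, y axis) and of Abcb1b 1446701_at (right, y axis) against that of Abcb1b 1418872_at (x axes), all in log2, 1 point per same-numbered pair. The left points run along a rising line (r = 0.92 over 9 pairs) that ends at betaD5 2, and the right points do not (r = -0.30).

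Abcb4 followed Abcb1b over the arrays (r = 0.87 with 1418872_at and 0.83 with 1446701_at) and not Abcb1a (0.01 and 0.11). Once array medians had been subtracted, r with Abcb1b was 0.69 and 0.22. The genes most like each member over the 18 arrays were taken by the highest r among 10544 other genes. For Abcb1a (1419759_at) they were Cmpk1 (0.81), Tmc6 (0.80), Efnb1 (0.79), Bckdha (0.77) and Slc6a9 (0.76), beside a median r of 0.03 over the genes. For Abcb1b (1418872_at) they were Usp16 (0.98), Pald1, Kpna1, Pxdc1 and Zfp623, beside a median of 0.69. For Abcb4 they were Sart1 (0.98), Xpo6, Cul4a, Setd1a and Klhl25, beside a median of 0.79. Once array medians had been subtracted, the median r was -0.021 for Abcb1a, 0.15 for Abcb1b and 0.18 for Abcb4, so the high medians of Abcb1b and Abcb4 were found only on the deposited scale. Over the deviations from the group means the leading genes for Abcb1a were Ahnak (0.88), Tnfrsf1b (0.87) and Ccdc112 (0.85). They were Rassf5 (0.94), Ist1 and Tent4b for Abcb1b, and Shkbp1 (0.96), Cyhr1 and Prrc2b for Abcb4. The median r over the genes on this measure was 0.255 for Abcb1a, 0.31 for Abcb1b and 0.585 for Abcb4. The 99th percentiles of r were 0.677, 0.832 and 0.917. Array medians were not subtracted from these deviations.

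Other genes of the same biology were taken as 4 lists, each gene by its brightest probe set. Of 12 other efflux transporters limma called 0 in the mean of the SP differences, with a median of -0.01 beside -0.01 over all probe sets. Abcg2, the pump usually credited with Hoechst exclusion, had the smallest p of the list, with a mean SP difference of 0.25 ± 0.13 (SE, adjusted p = 1, and 0.2365 with the block), followed by Abca3, a lipid transporter of alveolar type II cells, at -0.14. The level of Abcg2 was 11.19 ± 0.32 in SP and 10.75 ± 0.11 in nonSP arrays of betaD5, and 10.94 ± 0.36 in SP and 10.69 ± 0.24 in nonSP arrays of cRAF_cMYC (SD, n = 3 each). In A2C12 the level of Abcg2 was 8.60 ± 0.26 in SP and 8.54 ± 0.04 in nonSP arrays. Between A2C12 nonSP and betaD5 nonSP arrays 7 of the 12 were lower and 0 higher, with a median of -0.74, beside 57.7% of all probe sets lower and a median of -0.73. The 4 with the smallest p were Abcg2, which fell by 2.22, Abcb11, the bile salt export pump (fell by 1.84), Abca3 (fell by 1.05) and Abcc6 (fell by 0.79). Abcb11 averaged the 19.2 and 38.1 percentiles in A2C12 nonSP and betaD5 nonSP arrays, and Abcc6 the 16.9 and 17.5 percentiles. Whether signals of these 2 dim probe sets were above background was not tested. On centred arrays, where 5.80% of all probe sets were called lower and 6.07% higher, 2 of the 12 were lower and 1 was higher. These were Abcg2, which fell by 1.52, Abcb11, which fell by 1.14, and Abcc3, an exporter of conjugated organic anions, which rose by 1.56. Abcg2 was thus called lower in A2C12 than in betaD5 on both scales. Its cRAF_cMYC arrays stood beside those of betaD5 and above all A2C12 arrays. Those of Abcb1b on 1418872_at overlapped both other lines, betaD5 only through the pair cRAF_cMYC 3. The 2 genes were not tested against each other.

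Of the 10 neighbours on chromosome 5, Abcb4 included, 0 were called in the mean of the SP differences. In A2C12 nonSP against betaD5 nonSP arrays 7 of the 10 were lower, with a median of -0.94, beside the 57.7% and -0.73 of all probe sets. Those with the smallest p were Slc25a40, a mitochondrial carrier (fell by 1.70), Dbf4, the activating subunit of a replication kinase (fell by 1.83), Sri (fell by 0.93) and Steap4, a metalloreductase (fell by 0.99). On centred arrays 2 of the 10 were lower, beside 5.80% of all probe sets. These were Dbf4, which fell by 1.13, and Slc25a40, which fell by 1.001. Sri encodes sorcin, a calcium-binding protein co-amplified with P-glycoprotein genes in drug-resistant lines of hamster and human cells. Its mean SP difference was -0.08, and that of Dmtf1, a Myb-like transcription factor, was 0.09, the 2 smallest p of the list.

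Of 23 regulators of P-glycoprotein genes, 20 had a probe set annotated to that gene alone and were analysed. Hsf1, Nfkb1 and Trp53 had none in the annotation used and were left out. Whether other probe sets of the array measure them was not examined. None of the 20 was called in the mean of the SP differences. The members with the smallest p were Egr1, an immediate early factor, at -0.36, and Foxo3, a forkhead factor, at 0.24, neither past the threshold. In A2C12 nonSP against betaD5 nonSP arrays 11 of 20 were lower (median -0.78), close to the 57.7% and -0.73 of all probe sets. Those with the smallest p were the Wnt pathway factor Tcf7l2 (fell by 1.82), the NF-kB subunit Rela (fell by 1.16), Nfyc, a subunit of the factor that binds CCAAT boxes (fell by 0.94), and Sp1, which binds GC boxes (fell by 0.99). On centred arrays 1 of 20 was lower, beside 5.80% of all probe sets. It was Tcf7l2, which fell by 1.13.

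Of 11 genes of surface placement and turnover of the transporter, 0 were called in the mean of the SP differences (median 0.07). The smallest p were those of the kinase Pim1 (-0.23) and of Fbxo15, a ubiquitin ligase part (0.21). In A2C12 nonSP against betaD5 nonSP arrays 9 of 11 were lower, with a median of -1.28, beside 57.7% lower and a median of -0.73 over all probe sets. Those with the smallest p were Cav1, the main protein of caveolae (fell by 1.16), the actin linkers Ezr and Rdx (fell by 1.97 and 1.28) and Pim1 (fell by 1.77). On centred arrays 4 were lower and 1 was higher, with a median of -0.58, beside 5.80% lower and 6.07% higher over all probe sets. Pim1 fell by 1.08, Ezr fell by 1.28, Rdx fell by 0.58 and the endosomal GTPase Rab4a fell by 0.97. Pdia3, a folding enzyme of the endoplasmic reticulum, rose by 0.95.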

How the data were processed

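Biotin-labelled cRNA (10 µg, made from 200 ng of total RNA per the labels' protocols) of each sample was measured on an Affymetrix 3′ expression array. The authors deposited 1 log2 signal per probe set and array (45101 probe sets, 18 arrays), made with Affymetrix Expression Console per the submitters' processing notes; version, summary algorithm, normalization and detection calls are not given in the sources used here. Values ran from 2.28 to 15.28, and the number of arrays limits the precision. They were used as deposited, without the 64 control probe sets. Of the rest, 34945 listed 1 gene symbol, 932 several and 9160 none, and 34741 were matched to current symbols through gene identifiers.

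The 6 group means of all 45037 probe sets were fitted in limma 3.58.1 under R 4.3.3, with variances moderated towards a trend over mean signal, with 12 residual degrees of freedom and two-sided tests. Benjamini-Hochberg adjustment ran over all probe sets. The fit was tested on simulated data. The median 95% half-width of an SP difference in 1 line was 0.59 without and 0.25 with the replicate block. Same-numbered SP and nonSP arrays deviated together from their group means (r of 0.591 to 0.901 in 9 of 9 pairs). They were therefore treated as pairs in the pair differences and in the replicate block, while the fit of group means left the pairing out. For betaD5 2 and betaD5 3 another number also gave 0.366 and 0.244. The labels do not say that replicates were separate cultures, so p-values measure the spread between these samples, which may be technical.

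All probe sets of the members were named, together with the 5 genes (over arrays) and 3 genes (over deviations from group means) most correlated with each member's brightest probe set, the 40% of genes with the lowest mean being left out. Of each list Abcg2, Sri and Ezr, up to 4 called genes by smallest p and otherwise the 2 with the smallest p were named; genes called on centred arrays were added after their values had been seen. The members and lists were chosen with earlier results of these data known. Alternatives were the replicate block, quantile normalization, centring, a filter on dim probe sets, 1 probe set per gene, leaving out the pairs betaD5 1 and cRAF_cMYC 3, the 3′/5′ ratio as a covariate and leaving out each array or pair. The block combined with quantile normalization, the 3′/5′ ratio or leaving out both of those pairs was added after the data had been seen.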

Additional observations from a re-analysis of the deposited data

How the results depend on the processing

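No setting called a member in an SP comparison: over 20 member results and 37 settings the smallest adjusted p was 0.2122 (Abcb1b 1418872_at in betaD5, replicate block, without betaD5 replicate 1), and of 728 values 671 kept their sign and 57 turned it. The replicate block, which uses the pairing of SP and nonSP arrays, changed no call of a member. Over all probe sets the mean of the lines had 3 calls with the block and 0 without it. With the block and quantile normalization the count was 5, with the block and the 3′/5′ ratio 40, and leaving out 1 pair in turn gave 0 to 372, with 372 when pair betaD5 3 was left out. In betaD5 the block gave 86 calls without the pairs betaD5 1 and cRAF_cMYC 3, 105 with the 3′/5′ ratio, and 0 to 226 when 1 pair was left out (226 without betaD5 3, 101 without betaD5 1), with no member among them. The block combined with quantile normalization, with the 3′/5′ ratio or with leaving out those 2 pairs together was chosen after seeing the data.

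Some SP differences turned sign, among them that of Abcb1a 1419758_at in betaD5, which was 0.502 as deposited. With the 3′/5′ ratio as a covariate they were 0.015 (Abcb1b 1446701_at, A2C12), -0.155 (Abcb4, betaD5), -0.012 (Abcb1a 1419759_at, cRAF_cMYC) and -0.045 (Abcb4, mean). With the block and this ratio they were -0.050, -0.015 and 0.009 (1419758_at, 1418872_at and 1446701_at in A2C12), -0.058, -0.176 and -0.167 (1419758_at, 1419759_at and Abcb4 in betaD5) and -0.049 (Abcb4, mean). Without the pairs betaD5 1 and cRAF_cMYC 3 Abcb1a 1419759_at was -0.172 in cRAF_cMYC, with or without the block. The cause was not tested.

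Leaving out 1 array, or 1 pair with the block, turned the sign of SP minus nonSP in these ranges. In A2C12 they were -0.22 to 0.379 (1419758_at), -0.02 to 0.434 (1419759_at), -0.107 to 0.254 (1418872_at) and -0.223 to 0.199 (1446701_at). In betaD5 they were -0.134 to 0.825 (1419758_at), -0.208 to 0.407 (1419759_at) and -0.097 to 0.18 (Abcb4). In cRAF_cMYC they were -0.163 to 0.764 (1419758_at), -0.283 to 0.332 (1419759_at), -0.065 to 0.509 (1418872_at), -0.219 to 0.023 (1446701_at) and -0.168 to 0.293 (Abcb4). The mean of the lines turned for Abcb4 (-0.074 to 0.08).

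Between lines, A2C12 minus betaD5 called 26748 probe sets as deposited, 6256 after quantile normalization, 5347 on centred arrays, 14813 without the dimmest 40% and 6021 with 1 probe set per gene. The last 2 counts come from fewer features tested. Leaving out 1 array gave 18219 to 27789. The calls of Abcb1b and Abcb4 were lost under quantile normalization and centring, where differences are relative to the array, and were kept in every other setting that held the probe set. Quantile values were -0.51, -0.43 and -0.28 (1418872_at, 1446701_at and Abcb4; adjusted p = 0.254, 0.127 and 0.299). Abcb1a 1419759_at turned to 0.656, 0.685 and 0.226 (quantile, centred, without both pairs), and ran from -0.331 to 0.226 with 1 array left out. A2C12 minus cRAF_cMYC called 7885, against 4689 (quantile), 4094 (centred), 3115 (1 probe set per gene), 4533 (3′/5′ ratio) and 2995 to 13129 with 1 array left out (2995 without A2C12 nonSP replicate 3, 13129 without cRAF_cMYC nonSP replicate 1, and 3121 to 4770 without 1 of the other 4 arrays of these groups). betaD5 minus cRAF_cMYC called 0, or 5125 without both pairs, and Abcb1a 1419758_at there ran from -0.036 to 0.765 with 1 array left out. Arrays give no detection call here, so signal over background for the dim 1446701_at was not tested.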
